A study of Rattus norvegicus with 6 samples.

Results

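RT1-CE16, RT1-A3, RT1-CE3 and RT1-T24-4 are 4 genes of the rat major histocompatibility complex (MHC), which is called RT1. They were selected because their levels in the pulmonary vein (PV) differed between rats that underwent banding of the PVs on both sides (BPVB) and rats with a sham operation, so the difference between the groups is given here as a description and was not tested for them. They are 4 of the 28 class I RT1 genes in the expression table, which lists 17833 genes in all. RT1-CE16 and RT1-A3 were higher in the BPVB group, and RT1-CE3 and RT1-T24-4 were lower. RT1-CE16 went from 0.345 ± 0.292 FPKM in the sham group to 157 ± 1.88 FPKM in the BPVB group (SD, n = 3 each). FPKM are fragments counted on a gene after scaling to gene length and sequencing depth.

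MHC class I molecules are membrane proteins that pair with beta-2 microglobulin and display short peptides from inside the cell to CD8 T cells and natural killer (NK) cells. The rat RT1-A region holds the classical class I genes, which present peptides broadly, and the RT1-C/E and RT1-M regions hold nonclassical genes, many of which have narrower roles or none established. The peptides are cut by the proteasome, moved into the endoplasmic reticulum by the Tap1 and Tap2 transporter, and loaded with the help of tapasin. The number and sequence of class I genes differ between rat strains, and the genes are close copies of one another. Sprague-Dawley rats are an outbred stock.

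The BPVB group comprised 3 libraries from rats whose PVs were banded at postnatal day 1, and the sham group 3 libraries from rats that had the same thoracic surgery without the constriction. All were wild-type Sprague-Dawley rats, and the veins came from the right upper lobe at postnatal day 21. By the supplementary methods, the rats for sequencing were drawn at random within each group, 3 per group, so the libraries are taken as separate rats. Their litters, sexes and RT1 haplotypes are not given in the labels. Library totals were 23439506 to 29725808 fragments. The markers of vein tissue were present in every library, at lower sums in the BPVB group. The 7 endothelial markers summed to 998 to 1016 FPKM in the BPVB group and 1126 to 1138 FPKM in the sham group, and 4 were called lower and 0 higher (limma, called at an adjusted p under 0.05, also 0 higher at an unadjusted p under 0.05 and with limma-voom). The 6 smooth muscle markers summed to 5147 to 5194 FPKM and 5389 to 5427 FPKM, with 4 lower and 1 higher. The 6 cardiomyocyte markers, listed for the myocardial sleeve of the vein, summed to 8886 to 8955 FPKM and 11597 to 11825 FPKM, with 4 lower and 2 higher. Where in the sample the cardiomyocyte RNA came from was not tested. Markers of other cells also differed. The 9 alveolar epithelial markers summed to 645 to 700 FPKM after BPVB and 133 to 138 FPKM after sham surgery, and 8 were called higher and 1, Hopx, lower (59.3 ± 2.58 against 70.9 ± 2.33 FPKM). The 9 macrophage markers summed to 714 to 732 FPKM and 253 to 260 FPKM, with 8 called higher, and the 5 general leukocyte markers to 57.4 to 64.0 FPKM and 33.0 to 37.9 FPKM, with 4 called higher. Of all tested genes, 17.2% were called higher and 14.3% lower. None of these markers was at 0 in any library. Their part in the class I values was not tested, and in bulk tissue a different number of cells of a type cannot be told apart from a different amount of RNA per cell.

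The promoters of the 4 genes are shown first, because class I genes are known to share a compact regulatory block upstream of the start site. Each sequence is the 250 bases before the start site, 5′ to 3′ in the direction of the gene, as RefSeq gives them on the rat assembly GRCr8. The windows are chr20:3265444-3265693 on the minus strand for RT1-CE16, chr20:4849201-4849450 on the plus strand for RT1-A3, chr20:3525159-3525408 on the minus strand for RT1-CE3 and chr20:2689083-2689332 on the plus strand for RT1-T24-4. Capitals mark the letters of 3 motifs, read on both strands. These are the core of the kappaB element, GGGGATTCC, the core of the interferon-stimulated response element (ISRE), GAANNGAAA, and the core of site alpha, TGACGC.
RT1-CE16: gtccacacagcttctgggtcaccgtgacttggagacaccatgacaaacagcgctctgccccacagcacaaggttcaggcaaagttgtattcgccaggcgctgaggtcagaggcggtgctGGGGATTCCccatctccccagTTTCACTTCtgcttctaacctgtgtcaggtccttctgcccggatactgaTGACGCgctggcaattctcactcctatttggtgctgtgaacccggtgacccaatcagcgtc
RT1-A3: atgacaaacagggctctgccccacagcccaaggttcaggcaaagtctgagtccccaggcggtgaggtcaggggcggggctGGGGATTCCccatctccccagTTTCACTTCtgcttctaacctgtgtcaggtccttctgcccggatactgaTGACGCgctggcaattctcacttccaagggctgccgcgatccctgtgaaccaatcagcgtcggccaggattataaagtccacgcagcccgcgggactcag
RT1-CE3: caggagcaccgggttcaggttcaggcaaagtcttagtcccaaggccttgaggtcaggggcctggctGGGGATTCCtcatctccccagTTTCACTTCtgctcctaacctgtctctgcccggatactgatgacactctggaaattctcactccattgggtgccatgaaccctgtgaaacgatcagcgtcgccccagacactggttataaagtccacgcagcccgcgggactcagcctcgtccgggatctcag
RT1-T24-4: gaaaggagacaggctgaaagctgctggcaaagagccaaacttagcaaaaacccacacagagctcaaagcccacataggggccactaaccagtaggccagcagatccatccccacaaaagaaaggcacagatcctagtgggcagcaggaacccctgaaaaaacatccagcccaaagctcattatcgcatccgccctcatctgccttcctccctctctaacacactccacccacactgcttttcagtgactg

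RT1-CE16, RT1-A3 and RT1-CE3 carried the kappaB and ISRE letters in the same order, and RT1-T24-4 carried neither. The kappaB letters began 131 bases before the start site in RT1-CE16, 170 bases before it in RT1-A3 and 184 bases before it in RT1-CE3, and the ISRE letters followed 110, 149 and 163 bases before it. The site alpha letters were found in RT1-CE16, 61 bases before the start site, and in RT1-A3, 100 bases before it, but not in RT1-CE3. Over the 300 bases from 250 before to 50 after the start site, the kappaB letters occurred in 9 of 26 class I promoters (34.6%) and in 0.281% of all 33469 rat promoters. The ISRE letters occurred in 13 of 26 class I promoters (50%) and 8.54% of all, and the site alpha letters in 4 of 26 (15.4%) and 6.73% of all. A CCAAT box was found in RT1-CE16, RT1-A3 and RT1-CE3, in 65.4% of class I promoters and in 37.5% of all, and the letters TATAA in RT1-A3 and RT1-CE3, in 42.3% of class I promoters and in 26.2% of all. RT1-CE3, which was lower in the BPVB group, had both the kappaB and ISRE letters, as did RT1-CE16 and RT1-A3, which were higher. These are matches of letters in a reference sequence, and neither binding nor the sequence of the rats studied was measured.

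The windows of 300 bases were aligned end to end, and identity was taken over all columns of the alignment, gaps included. The RT1-CE3 and RT1-A3 promoters were 72.8% identical (324 columns), RT1-CE16 and RT1-A3 66.2% (346 columns), and RT1-CE16 and RT1-CE3 56.6% (364 columns). Windows whose start sites lie at different distances from the shared motifs gain gaps at their ends, which lowers these values. The RT1-T24-4 promoter was 45.9% to 48.5% identical to the others. Values of this size were common among other class I pairs, such as RT1-M3-1 and RT1-S3 (46.4%) or RT1-S2 and RT1-A2 (48.0%). They are not read as likeness. Among all 26 class I promoters the highest identity by this measure was with RT1-CE13 for RT1-CE16 (88.2%) and with RT1-A2 for RT1-A3 (84.7%). It was with RT1-CE10 for RT1-CE3 (79.7%), and RT1-T24-4 had no match above the 48.8% of RT1-T24-1. The measure depends on where the start site is annotated, so these pairs are not read as nearest relatives. The kappaB letters began 125 bases before the start site in RT1-CE13 and 131 in RT1-CE16, but 170 in RT1-A3. RT1-CE13 was higher in the BPVB group, as RT1-CE16 was, but at a far lower level, with 0.367 ± 0.243 FPKM after BPVB and 0.0256 ± 0.0443 FPKM after sham surgery (limma adjusted p = 0.043, a call lost in 7 of 15 alternatives). RT1-A2 was lower in the BPVB group, where RT1-A3 was higher. RT1-CE10 was higher, where RT1-CE3 was lower.

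RT1-CE16 (NCBI Gene 414819) belongs to the RT1-C/E region. It measured 159, 155 and 156 FPKM in BPVB libraries 1, 2 and 3, and 0.304, 0.655 and 0.0758 FPKM in sham libraries 1, 2 and 3. All 3 BPVB libraries were high and close to each other, and all 3 sham libraries were near 0. The values rest on 4692, 4484 and 5129 fragments in the BPVB libraries and on 8, 17 and 2 fragments in the sham libraries. The coefficient of variation among the BPVB libraries was 1.2%, beside 1.45% that counting alone would give. Among the sham libraries it was 84.6%, beside 47.7% from counting. Scaled by the library totals, the summed fragments were 456 times as high in the BPVB group, with a 95% exact counting interval of 313 to 693 that does not cover variation between rats. The log2 fold change on the scale of log2(FPKM + 0.5) was 7.60 (SE 0.20), a scale that understates the change of a gene near 0. The FPKM count fragments assigned to the RT1-CE16 gene of a reference, and which RT1 alleles the rats of each group carried, and how their reads map to it, was not tested.

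RT1-A3 (NCBI Gene 309627) lies in the RT1-A region of classical genes. It measured 15.7, 18.8 and 17.2 FPKM in the BPVB libraries and 3.81, 2.71 and 3.17 FPKM in the sham libraries. The groups did not overlap, and the lowest BPVB library stood far above the highest sham library. The group means were 17.2 ± 1.54 and 3.23 ± 0.550 FPKM (SD, n = 3 each), from 2373 and 383 fragments in all. The ratio of summed fragments, scaled by the library totals, was 5.34 (95% exact counting interval 4.79 to 5.96), and the log2 fold change was 2.26 (SE 0.12). In contrast to RT1-CE16, RT1-A3 was clearly detected in every sham library, with 106 to 151 fragments.

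RT1-CE3 (NCBI Gene 414793) is a gene of the RT1-C/E region with a low level in both groups. It measured 0.206, 0.268 and 0.286 FPKM in the BPVB libraries and 1.81, 1.32 and 2.43 FPKM in the sham libraries. Every sham library was above every BPVB library, although the sham libraries spread widely. These values rest on 11, 14 and 17 fragments after BPVB and 86, 62 and 116 after sham surgery. On the same scale the sham group was 7.30 times as high (95% exact counting interval 5.26 to 10.4). The log2 fold change was -1.62 (SE 0.18), again understated at this level.

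RT1-T24-4 (NCBI Gene 414784) is a class I gene of the T24 group and was the most abundant class I gene of the sham PV. It measured 67.6, 72.0 and 69.8 FPKM in the BPVB libraries and 139, 137 and 128 FPKM in the sham libraries. The groups were well separated, and the coefficients of variation were 3.14% and 4.13%. The means were 69.8 ± 2.19 and 134 ± 5.56 FPKM (SD, n = 3 each), from 9521 and 15800 fragments. The sham group was 1.93 times as high (95% exact counting interval 1.88 to 1.98), with a log2 fold change of -0.94 (SE 0.04). The reference places part of its span, 26806 bases, over that of RT1-T24-3, so some fragments may be shared between them. The spans of RT1-CE16, RT1-A3 and RT1-CE3 overlap no other class I gene of the table, although fragments from near-identical copies could still be split among genes by the counting.

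**Figure D1:**
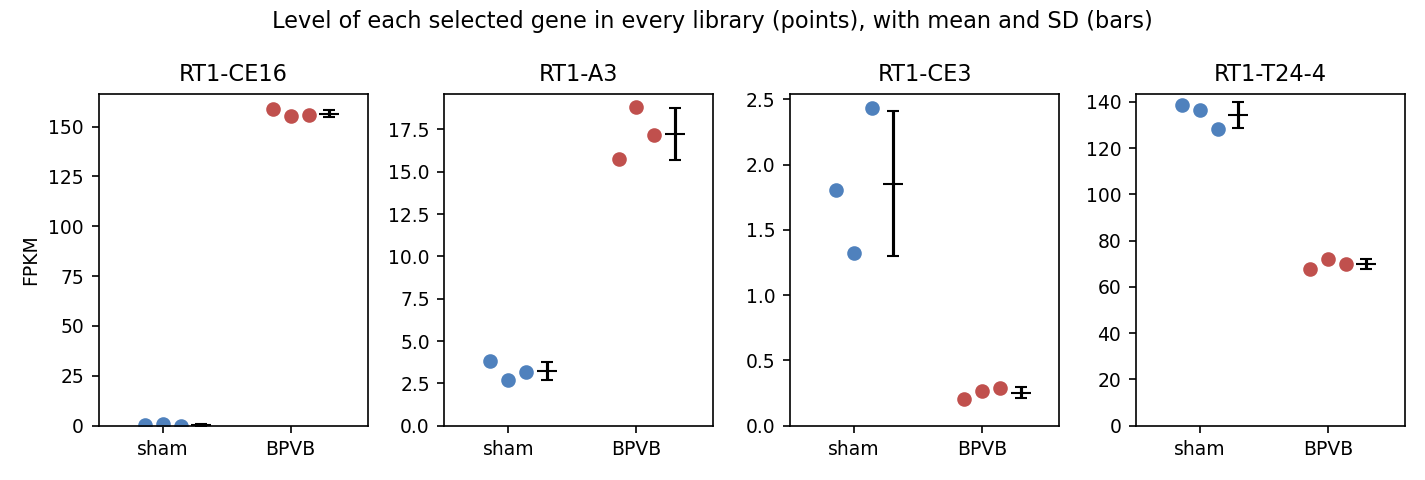
Level in FPKM (linear axis from 0, with its own scale in each panel) of RT1-CE16, RT1-A3, RT1-CE3 and RT1-T24-4, with 1 point per library for 3 sham and 3 BPVB libraries and bars for the group mean and SD. The groups do not overlap for any of the 4 genes, and RT1-CE16 spans the widest range, from 0.0758 FPKM in sham library 3 to 159 FPKM in BPVB library 1.

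In the whole table, 17.2% of the 15150 tested genes were called higher in the BPVB group and 14.3% lower (limma, adjusted p under 0.05), and 45.6% had groups that did not overlap. Of the 4 selected genes, 2 were higher and 2 lower, and none overlapped between the groups. Since the genes were chosen on this difference, nothing is read from these counts.

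The order of class I levels was also different between the groups. FPKM are scaled by gene length, which allows levels to be set side by side within a library. Fragments shared between overlapping or near-identical class I genes may still shift these levels, ranks and shares, which was not tested. In the BPVB group the order was RT1-CE16, RT1-T24-4, RT1-S3 (40.1 ± 0.836 FPKM), RT1-A3, and then RT1-A2 and RT1-CE12, whose libraries overlapped. In the sham group it was RT1-T24-4, RT1-S3 (48.3 ± 1.74 FPKM), RT1-A2 (19.8 ± 1.89 FPKM), and then RT1-CE12, RT1-CE1 and RT1-T24-3, whose libraries overlapped. RT1-CE16 ranked 1 of 28 in the BPVB group and 21 of 28 in the sham group. RT1-A3 ranked 4 and 13, RT1-CE3 ranked 22 and 15, and RT1-T24-4 ranked 2 and 1. In the whole table, 97.4% of genes lay below RT1-CE16 in the BPVB group, and 24.1% in the sham group.

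**Figure D2:**
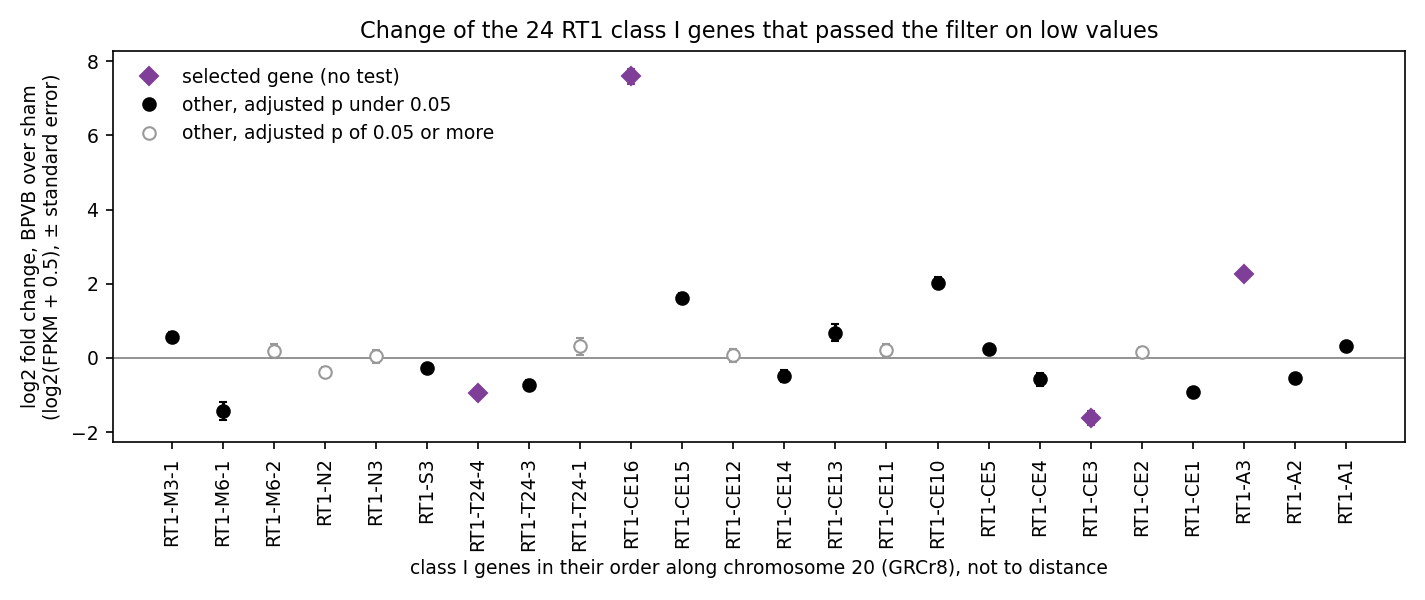
Log2 fold change (BPVB over sham, on log2(FPKM + 0.5)) with bars of 1 SE for the 24 class I RT1 genes that passed the filter on low values, in their order along chromosome 20 of GRCr8. Diamonds are the 4 selected genes, which were not tested, and filled circles are other genes with a limma adjusted p under 0.05. RT1-CE16 stands at 7.60, far above RT1-A3 at 2.26, and points above and below 0 are interspersed along the order.

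The 4 genes did not lie side by side. Along chromosome 20 of the reference, RT1-T24-4 was number 11 of the 28 class I genes, RT1-CE16 number 14, RT1-CE3 number 23 and RT1-A3 number 26. Genes of both directions lay between them. Next to RT1-CE16, RT1-CE15 was higher in the BPVB group (6.42 ± 0.662 against 1.77 ± 0.361 FPKM) and RT1-T24-1 was not called (4.95 ± 1.83 against 3.75 ± 0.570 FPKM). Next to RT1-A3, RT1-A2 was lower (13.4 ± 1.21 against 19.8 ± 1.89 FPKM) and RT1-CE1 was lower (6.45 ± 0.952 against 12.7 ± 1.21 FPKM). Within the 3 RT1-A genes the direction was therefore mixed, with RT1-A3 and RT1-A1 higher and RT1-A2 lower.

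RT1-CE16 made up 41.5% ± 0.389 of the summed class I level in the BPVB group and 0.122% ± 0.106 in the sham group (SD, n = 3 each). The share of RT1-T24-4 was 18.5% ± 0.678 in the BPVB group and 47.6% ± 1.76 in the sham group. RT1-A3 took 4.58% ± 0.433 and 1.14% ± 0.151, and RT1-CE3 took 0.0672% ± 0.0112 and 0.656% ± 0.204. Together the 4 genes held 64.7% ± 0.937 of the class I level in the BPVB group and 49.5% ± 1.57 in the sham group.

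The sum over all 28 class I genes was 377 ± 2.14 FPKM in the BPVB group and 283 ± 11.4 FPKM in the sham group, 1.33 times as high. Without RT1-CE16 the order of the groups turned, with 221 ± 1.70 FPKM against 283 ± 11.5 FPKM. That sum still includes the selected RT1-T24-4 (69.8 against 134 FPKM). The turn therefore follows from the selection and is not read as a result about the other class I genes. The sum of the 24 genes that were not selected was 136, 128 and 135 FPKM in the BPVB libraries and 152, 134 and 143 FPKM in the sham libraries. These ranges overlapped, and the difference of -9.81 FPKM gave p = 0.3 in a two-sided exact permutation test, whose smallest possible p at this group size is 0.1. The difference was -5.54 FPKM without sham replicate 1 and -14.1 FPKM without sham replicate 2. The 12 RT1-CE genes summed to 202 ± 6.29 FPKM and 42.9 ± 3.67 FPKM, but to 45.7 ± 4.52 and 40.7 ± 3.68 FPKM without RT1-CE16 and RT1-CE3. The 3 RT1-T24 genes summed to 81.6 ± 4.92 FPKM and 149.8 ± 5.04 FPKM, and the 3 RT1-A genes to 37.8 ± 1.96 FPKM and 28.8 ± 2.85 FPKM. These sums include the selected RT1-T24-4 and RT1-A3, so they largely restate the selection. Of the other RT1-A genes, RT1-A2 was lower (13.4 against 19.8 FPKM) and RT1-A1 higher (7.20 against 5.71 FPKM). Of the other RT1-T24 genes, RT1-T24-3 was lower (6.86 against 11.6 FPKM) and RT1-T24-1 was not called.

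**Figure D3:**
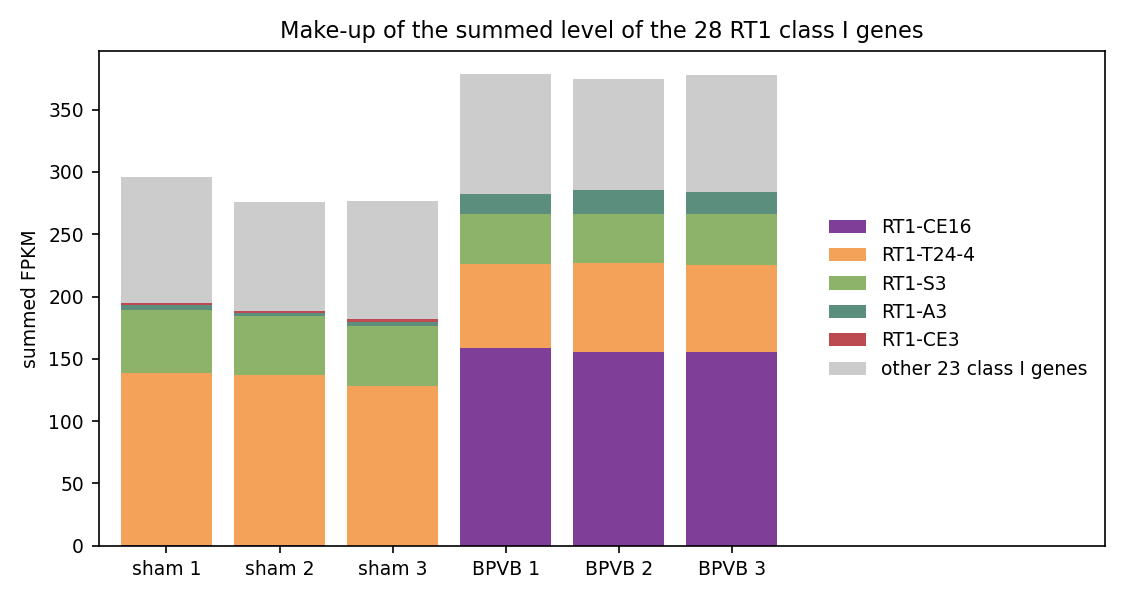
Summed level in FPKM of the 28 class I RT1 genes in each of the 3 sham and 3 BPVB libraries, as stacked bars from 0 that separate RT1-CE16, RT1-T24-4, RT1-S3, RT1-A3, RT1-CE3 and the remaining class I genes. The BPVB libraries reach 375 to 378 FPKM and the sham libraries 276 to 296 FPKM, and the segment of RT1-CE16 is visible in the BPVB bars alone.

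Of the 24 other class I genes, 20 passed the filter on low values and were tested. Of these, 6 (30%) were called higher in the BPVB group and 7 (35%) lower, beside 17.2% and 14.3% of all tested genes, and 14 of the 20 did not overlap between groups, beside 45.6% of all tested genes. Their median log2 fold change was 0.11, and that of all tested genes was 0.02. The number called higher was 3 without BPVB replicate 3, without sham replicate 2 or without sham replicate 3, and 3 with quantile normalization. RT1-M2, RT1-T18, RT1-S2 and RT1-O1 had at most 4 fragments in any library and were not tested.

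Among the genes called higher, RT1-CE10 measured 9.69, 6.71 and 6.79 FPKM after BPVB and 1.66, 1.38 and 1.43 FPKM after sham surgery, a log2 fold change of 2.03 (SE 0.15, limma adjusted p = 1.4e-05). Its size was close to that of RT1-A3, although its span lies within that of RT1-CE11 in the reference, and RT1-CE11 itself was not called. RT1-CE15 had a log2 fold change of 1.62 (SE 0.14, limma adjusted p = 3.8e-05). RT1-M3-1, the rat counterpart of the mouse gene whose product presents formylated peptides, rose by a log2 fold change of 0.56 (limma adjusted p = 0.011). RT1-A1 (0.31), RT1-CE5 (0.25) and RT1-CE13 (0.68) also passed, the last with 12, 3 and 19 fragments after BPVB and 0, 0 and 2 after sham surgery. At these counts the RT1-CE13 log2 fold change ranged from 0.40 to 3.29 (limma-voom) over the alternatives that kept all libraries.

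Among the genes called lower, RT1-CE1 had a log2 fold change of -0.93 (SE 0.11, limma adjusted p = 2.7e-04), almost the same size as RT1-T24-4. RT1-T24-3, whose span overlaps RT1-T24-4, fell from 11.6 ± 1.11 to 6.86 ± 1.03 FPKM (log2 fold change -0.72, limma adjusted p = 0.0015). RT1-A2 had a log2 fold change of -0.55 and RT1-S3 of -0.27. RT1-M6-1 was counted with 2, 3 and 7 fragments after BPVB and with 17, 32 and 48 after sham surgery, a log2 fold change of -1.44. Over the alternatives that kept all libraries, the RT1-M6-1 log2 fold change ranged from -3.10 to -0.97. RT1-CE4 (-0.58, but -0.375 without BPVB replicate 1) and RT1-CE14 (-0.49) were the others.
The 7 genes that were tested and not called were RT1-CE2, RT1-CE11, RT1-CE12, RT1-M6-2, RT1-N2, RT1-N3 and RT1-T24-1, with log2 fold changes from -0.38 to 0.31. Of these, RT1-T24-1 was called higher without BPVB replicate 1 (0.57, limma adjusted p = 0.040) and RT1-N2 lower with quantile normalization (limma adjusted p = 0.032).

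The calls of RT1-CE10, RT1-CE15 and RT1-M3-1 (higher) and of RT1-CE1, RT1-T24-3, RT1-A2 and RT1-S3 (lower) were present in all 15 alternative analyses, and that of RT1-M6-1 in all 14 that tested it. The calls of RT1-A1, RT1-CE4, RT1-CE5, RT1-CE13 and RT1-CE14 had adjusted p from 0.033 to 0.049 (limma) and were lost in 6, 6, 10, 7 and 5 of the alternatives, in each case also when any 1 of at least 4 of the 6 libraries was left out. RT1-CE4 and RT1-CE5 overlap each other in the reference, and RT1-CE13 and RT1-CE14 overlap RT1-CE12.

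B2m, the beta-2 microglobulin that every class I molecule needs at the cell surface, rose from 491 ± 6.43 to 644 ± 14.6 FPKM (log2 fold change 0.39, limma adjusted p = 5.7e-06). Its libraries measured 633, 661 and 639 FPKM in the BPVB group and 493, 484 and 497 FPKM in the sham group. Of the 20 genes of class I assembly and peptide loading, all tested, 5 (25%) were called higher and 3 (15%) lower, beside 17.2% and 14.3% of all tested genes, so the share lower was near the background. The median change was 0.08 on the log2 scale. Higher were, besides B2m, tapasin (Tapbp, 0.62), its homologue Tapbpl (0.24), the transporter subunit Tap1 (0.45) and the immunoproteasome subunit Psmb8 (0.63). Lower were the proteasome activator subunit Psme1 (-0.25), the chaperone calreticulin (Calr, -0.17) and the transcription factor Irf1 (-0.20). The Tapbpl call was lost in 7 of 15 alternatives, which were quantile normalization, the replicate block, limma-voom and leaving out BPVB replicate 2 or 3 or sham replicate 2 or 3 (limma adjusted p from 0.055 to 0.096). That of Irf1 was lost in 5, which were limma-voom and leaving out BPVB replicate 1 or 2 or sham replicate 1 or 3 (0.060 to 0.084).
The other transporter subunit, Tap2, stood at 0.21 on the log2 scale, the immunoproteasome subunit Psmb9 at 0.08 and Psmb10 at -0.15, and none of them was called. Nlrc5, the transactivator of class I genes, was at 0.325 ± 0.0544 FPKM in the BPVB group and 0.226 ± 0.0608 FPKM in the sham group, with libraries that overlapped, and was not called. The factors Rfx5, Rfxank, Rfxap and Irf2 were not called either, with log2 fold changes from -0.22 to 0.10, although Rfxank was called lower without BPVB replicate 1 (Rfxank log2 fold change -0.38, limma adjusted p = 0.013). Pdia3, a chaperone of peptide loading, stood at 0.08 and was not called, but was called higher in 4 alternatives, which were quantile normalization, the replicate block, limma-voom and leaving out BPVB replicate 3 (limma adjusted p from 0.0036 to 0.048), and Erap1, which trims peptides, was called higher with limma-voom (0.024).

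**Figure D4:**
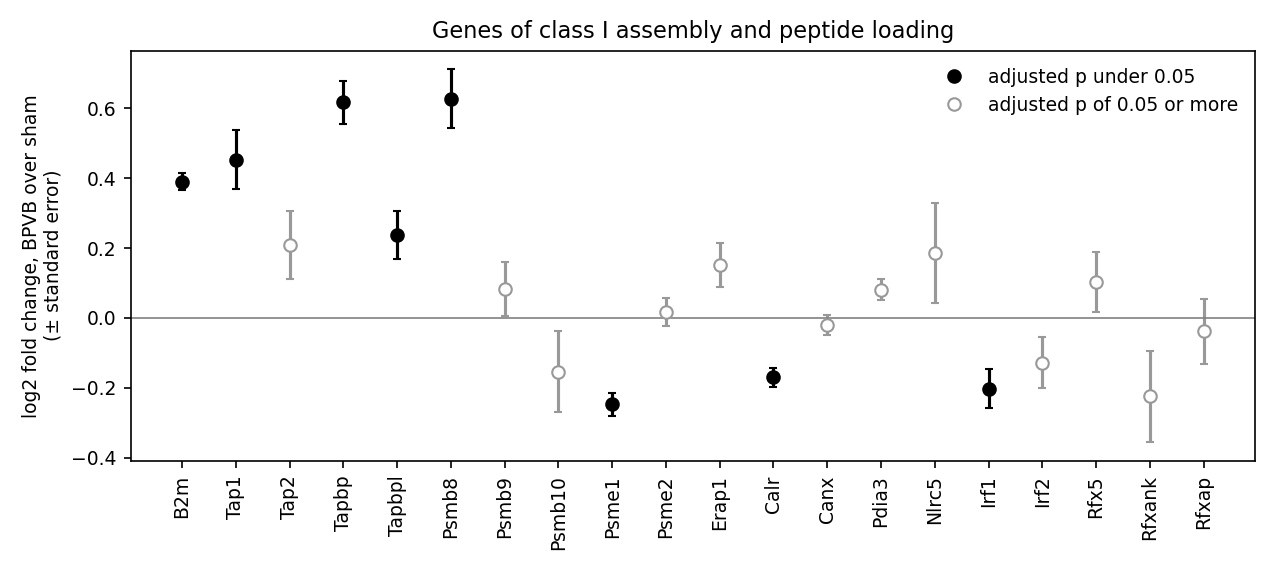
Log2 fold change (BPVB over sham, on log2(FPKM + 0.5)) of the 20 genes of class I assembly and peptide loading, with bars of 1 SE. Filled points have a limma adjusted p under 0.05. B2m, Tap1, Tapbp, Tapbpl and Psmb8 lie above 0, Psme1, Calr and Irf1 below 0, and the regulators Nlrc5, Rfx5, Rfxank and Rfxap are among the open points.

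The genes that lie between the RT1 genes on chromosome 20 but are not class I or class II genes moved at about the background rate. Of 109 such neighbours, 100 were tested, and 16 (16%) were called higher and 17 (17%) lower, beside 17.2% and 14.3% of all tested genes. The median of their log2 fold changes was 0.06, and that of all tested genes was 0.02. The smallest adjusted p among those called higher were those of Ager (2.54), a gene that also marks alveolar type I cells, and of the complement genes C4a (1.11) and C4b (which measured 2.88 ± 0.484 FPKM in the sham group and 3.13 times that in the BPVB group). Among those called lower they were those of the heat shock gene Hspa1b (-1.21), of Notch4 (-0.93) and of LOC108348108 (-1.16), which the reference names Hspa1b, while it names the row Hspa1b as the close copy Hspa1a, so fragments of the pair may be split.

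The class II list holds genes whose products present peptides to CD4 T cells, the RT1-DM and RT1-DO genes, whose products edit peptide loading, the invariant chain Cd74 and the regulator Ciita. Of its 10 genes, 8 (80%) were called higher and 0 lower by limma, beside 17.2% and 14.3% of all tested genes, also with 0 lower at an unadjusted p under 0.05 and with limma-voom. RT1-Ba (3.82), RT1-Bb (2.73) and RT1-Da (1.32) had the smallest adjusted p. Macrophages express class II genes, and the part of the higher macrophage markers given above was not tested. Of 32 interferon-stimulated genes, 2 (6.25%) were called higher and 10 (31.2%) lower, beside the same shares of all tested genes, and the median of the list was -0.13 on the log2 scale. Ifitm3 (0.33) and Xaf1 (0.50) were higher, and Ifit1 (-3.21), Usp18 (-1.10) and Ifit2 (-0.48) were the lower genes with the smallest adjusted p. Ifit1 had 0, 5 and 0 fragments after BPVB and 241, 185 and 221 after sham surgery, so the size of its change is set by the pseudocount, and the Ifit1 log2 fold change ranged from -7.84 (limma-voom) to -2.39 (pseudocount 1) over the alternatives that kept all libraries. Without BPVB replicate 1, 6 genes of the list were called lower. Of 15 tested genes for class I receptors and cytotoxic proteins of T and NK cells, 2 were called higher, the granule protease Gzma (1.08) and perforin, Prf1 (0.67), and 0 lower by limma, with 1 lower at an unadjusted p under 0.05 (Cd3d, -0.44) and 0 with limma-voom. The share called higher, 13.3%, was below the 17.2% of all tested genes, and the Prf1 call was lost with limma-voom and without BPVB replicate 2, sham replicate 2 or sham replicate 3 (limma adjusted p from 0.059 to 0.076). The 9 T and NK cell markers summed to 12.7 to 13.4 FPKM in the BPVB libraries and 9.07 to 9.58 FPKM in the sham libraries. Cd4, which rat macrophages also express, made up most of that difference (8.42 ± 0.399 against 4.93 ± 0.542 FPKM), and the other 8 markers summed to 4.42 to 4.67 FPKM and 3.81 to 4.79 FPKM, ranges that overlap. The 5 B cell markers summed to 2.46 to 2.89 and 1.99 to 3.34 FPKM.

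Other large steps between the groups, of at least 20 times, were looked for in the rest of the table. None of those found reached the ratio of group means of RT1-CE16, 454. Of the 8699 genes with a mean of at least 5 FPKM in one of the groups, 4 had a group mean at least 20 times the other. Besides RT1-CE16 these were Ankrd2, an ankyrin repeat protein of striated muscle, at 9.38 ± 1.49 against 0.163 ± 0.185 FPKM, the phospholipase gene Pla2g4c at 5.44 ± 1.17 against 0.101 ± 0.0765 FPKM, and Fam111a at 3.60 ± 0.179 against 78.3 ± 2.03 FPKM (BPVB against sham). The reference places the other 3 genes on chromosome 1. RT1-A3, RT1-CE3 and RT1-T24-4 did not reach this ratio. Genes under 5 FPKM in both groups were not counted, and Ifit1, just under that level (0.0309 ± 0.0536 against 4.41 ± 0.548 FPKM), passed the ratio.

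The genes most like each of the 4 over the 6 libraries were found by Pearson correlation of log2(FPKM + 0.5) among 12157 genes with a mean of at least 1 FPKM. With 2 groups of 3 libraries such a correlation mostly records the step between the groups and is given as a description. For RT1-CE16 they were Sidt2, Ccn3, Cldn18, LOC103691939 and Col1a2, all at r = 1.00 after rounding, among which Cldn18, an alveolar tight junction gene, measured 14.4 FPKM in the BPVB group and 1.36 FPKM in the sham group. For RT1-A3 they were Dynll1, Pdlim5, Klhl41, Cyp2e1 and Tacc3 (r from 0.998 to 0.999). For RT1-CE3 they were Tmod3, Fam120b, Osgepl1, Gask1b and Mrpl12 (r from 0.993 to 0.998). For RT1-T24-4 they were Utrn, Pik3r1, Acss1, Slc4a3 and Fh (r from 0.999 to 1.00). No class I gene was among the 5 closest of any of the 4.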

How the data were processed

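Bulk RNA-seq was available for 3 BPVB and 3 sham libraries of rat PV, sequenced as 150 bp paired-end reads. The authors mapped and counted the reads per gene and deposited 1 FPKM value per gene and library. The paper names fastp, HISAT and HTSeq-count, whereas the submitters' processing notes name HISAT2 2.0.5, StringTie 1.3.3b, featureCounts 1.5.0-p3 and DESeq2 1.20.0. For the library kit, VAHTS Universal V6 is named in the paper and NEBNext Ultra in the labels. The genome build, the annotation version, the strand setting and the treatment of reads that map to several places are not given in the sources used here. That treatment can shift reads between near-identical class I genes. Per the labels, samples were grouped by the banding or sham operation. The table held 0 sample columns that went unused.

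The members and the gene lists were chosen with earlier results of these data known. The class I genes were the rows whose symbol starts with RT1-, less the class II symbols. Library totals were found as the whole numbers that fit the ratios of FPKM between libraries. For each gene the smallest whole length that made the fragments of all libraries whole (tolerance 1e-06) was then taken, for all 17833 genes (100%). Exact intervals on them cover counting error only.

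Groups were compared with limma 3.58.1 in R 4.3.3 (lmFit, eBayes with trend) on log2(FPKM + 0.5), two-sided, for the 15150 genes whose mean reached 0.1 FPKM, with Benjamini-Hochberg adjustment, and a gene was called at an adjusted p under 0.05. Lists are described by their counts and medians. The fit was tested on simulated data. Named genes were the class I genes, those of class I processing, the 3 with the smallest adjusted p in each direction of every other list, the 5 genes most correlated with each of the 4, and those with a mean of at least 5 FPKM in one group and at least 20 times the other. Gene order and promoters came from RefSeq (GRCr8). Of the 17833 gene IDs, 17649 were matched, and promoters were found for 26 of the 28 class I genes. Alternatives were pseudocounts of 1 and 0.1, a mean of at least 1 FPKM, no filter, median-of-ratios and quantile scaling, robust eBayes, a block for the replicate number, limma-voom on recovered fragments, and leaving out each library. Python 3.11.15 with numpy 2.4.6, pandas 2.3.3, scipy 1.17.1, matplotlib 3.10.9 and Biopython 1.88 was used for the rest.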

Additional observations from a re-analysis of the deposited data

How the results depend on the processing

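RT1-CE16 and RT1-A3 were higher and RT1-CE3 and RT1-T24-4 lower in the BPVB group under all 15 alternatives. With pseudocounts of 1 and 0.1 and with limma-voom, the RT1-CE16 log2 fold change was 6.89, 8.70 and 9.16, and the RT1-CE3 log2 fold change was -1.17, -2.43 and -2.80, as the pseudocount sets how far values near 0 can fall. RT1-A3 ranged from 2.11 to 2.42 and RT1-T24-4 from -0.97 to -0.90 under the alternatives that kept all libraries.

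The other class I genes called higher numbered 6, but 3 with quantile normalization, and 3 to 5 when 1 library was left out (3 without BPVB replicate 3, without sham replicate 2 or without sham replicate 3), with the cause not tested beyond the smaller number of libraries. Those called lower numbered 5 to 7 when 1 library was left out. The interferon-stimulated genes called lower numbered 6 to 10 when 1 library was left out, with 6 without BPVB replicate 1. The difference of the sum over the other 24 class I genes was -14.1 to -5.54 FPKM when 1 library was left out and -12.3 FPKM with median-of-ratios scaling (exact permutation p = 0.1, the smallest possible).

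The replicate numbers of the groups were not shown to pair the libraries, as the deviations of same-numbered libraries correlated at 0.0255, 0.0136 and 0.0153, although each library correlated best with its own number. With the replicate number as a block, 5 other class I genes were called higher and 6 lower, and RT1-CE4 (adjusted p = 0.055), RT1-CE5 (0.083) and Tapbpl (0.055, limma) were no longer called, while Pdia3 was called higher (0.048). RT1-CE3 rests on 11 to 17 fragments per BPVB library and RT1-CE16 on 2 to 17 per sham library, so that depth limits how precisely these low levels are known.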

Other observations

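LOC120093125 is named RT1-O1l1 by the reference and lies outside the symbols searched for class I genes, and it was singled out after its values were seen. It had 46, 48 and 69 fragments after BPVB and 0, 0 and 0 after sham surgery. Its level was 0.617 ± 0.0996 FPKM (SD, n = 3) in the BPVB group, and it was listed at 0 in the sham group (limma adjusted p = 3.0e-04). RT1-O1, with which it shares part of its name, had 0, 0 and 0 fragments after BPVB and 4, 1 and 1 after sham surgery.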
